A study of Mus musculus with 12 samples.

Results

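Ear skin in which the vitamin D receptor gene had been deleted with a keratin 5 promoter and which had been given a vitamin D ointment was compared with ear skin of wild-type mice that had been left alone. The comparison used 6 of the 12 RNA-seq libraries, taken by their labelled genotype and treatment, and covered 14059 of the 23234 gene symbols, those with at least 1 FPKM (fragments scaled to transcript length and library size) in at least 3 of the 12 libraries. The VDRcKO_Oxarol group held 3 libraries of ear skin with the genotype K5-Cre;VDR f/f, taken 1 day after 100 mg of Oxarol ointment, which carries maxacalcitol, a synthetic analogue of active vitamin D3. The WT_untreated group held 3 libraries of ear skin of wild-type C57BL/6J mice that received nothing. All mice were 8 to 12 weeks old. The strain field of the deleted mice gives their genotype only. The wild-type groups WT_PBS and WT_Oxarol, each of 3 libraries taken 1 day after saline or the same ointment, served as reference levels. Handling, ointment base, drug and genotype all differed between the groups compared and cannot be told apart.

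The vitamin D receptor is a nuclear receptor that binds DNA together with a retinoid X receptor and, with active vitamin D3 bound, switches on genes such as Cyp24a1, whose enzyme breaks the hormone down. In keratinocytes, the epithelial cells of the epidermis and the hair follicle, it takes part in differentiation. It is also needed, with its corepressor Hairless and without any ligand, for the hair follicle to enter a new growth phase, and mice without it lose their hair. The keratin 5 promoter is active in basal keratinocytes and the outer root sheath of the follicle, so cells of the dermis, vessels, cartilage and blood keep the receptor in this model.

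The sum of the listed FPKM values in the 6 libraries ran from 484228 to 549428, and 17323 to 18123 symbols had a value above 0. Pearson correlations of log2(FPKM + 1) were 0.931 to 0.955 among the untreated libraries, 0.953 to 0.958 among the VDRcKO_Oxarol libraries and 0.892 to 0.935 between the groups. Read counts were not used here. Relative reads were estimated from the steps of low values, with VDRcKO_Oxarol replicate 3 set to 1 as the reference. They were 1.53 to 2.16 in the untreated libraries and 0.68 and 0.81 in VDRcKO_Oxarol replicates 1 and 2. Of the genes used, 50.6% to 62.1% lay on such steps, so these values are rough. The library codes in the labels form 2 runs of numbers, called here the first and the second series. Untreated replicates 1 and 2 fall in the first, and untreated replicate 3 and all 3 VDRcKO_Oxarol libraries fall in the second. The labels do not call these series batches, and the group and the series largely coincide. All 12 basal and all 15 suprabasal keratinocyte markers passed the filter, as did 15 of 15 striated muscle, 13 of 13 adipocyte and 14 of 15 cartilage markers, tissues that an ear contains. In whole tissue, fewer cells of a type and less RNA per cell cannot be told apart.

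Of the 14059 genes, 2668 (19%) differed between the groups at an adjusted p under 0.05, by limma on log2(FPKM + 1) with Benjamini-Hochberg adjustment. Among these, 1796 (12.8% of the genes tested) were higher in VDRcKO_Oxarol and 872 (6.2%) were lower, so that 67.3% of the calls were higher. Quantile normalization gave 1215 higher and 1849 lower (39.7% higher), and with median-of-ratios scaling the calls were 1328 and 1359 (49.4% higher). The median log2 difference over all genes was 0.08 and moved to -0.05 and 0.01 with these scalings. The difference reached 2-fold in 440 called genes (3.13%). The libraries of the groups did not overlap for 5328 genes (37.9%), and 5088 genes (36.2%) had an unadjusted p under 0.05. Counts of called genes in the lists below stand beside the shares over all genes, 12.8% higher and 6.2% lower. All differences below are VDRcKO_Oxarol minus WT_untreated on the log2(FPKM + 1) scale, with the standard error of the fit and 3 libraries per group. This scale understates the change of genes with low values.

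**Figure D1:**
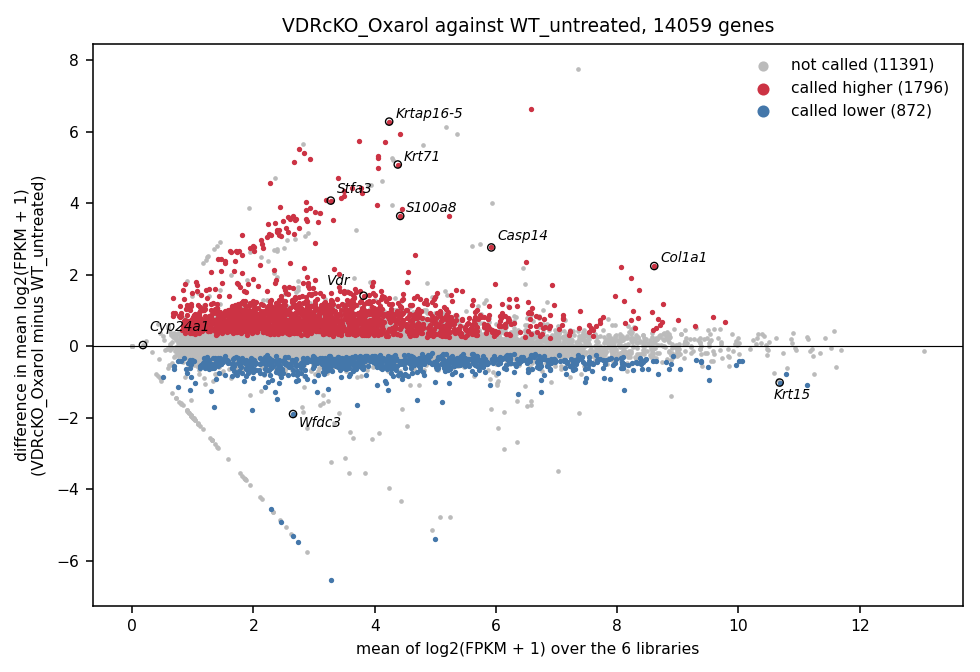
Each point is a gene. The horizontal axis is its mean log2(FPKM + 1) over both groups and the vertical axis its log2 difference, VDRcKO_Oxarol minus WT_untreated. The 1796 genes called higher are red, the 872 called lower are blue and the 11391 not called are grey; the grey diagonal at lower left holds genes listed at 0 in the VDRcKO_Oxarol libraries.

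Vdr itself, the gene of the receptor, was listed at 4.87, 9.35 and 9.57 FPKM in the untreated libraries and at 23.6, 25 and 18 in the VDRcKO_Oxarol libraries. Every library labelled as deleted lay above every untreated library, a log2 difference of 1.41 ± 0.21 (SE, adjusted p = 0.00348). A gene-level value does not show whether the deleted exon was present in these transcripts, and cells outside the keratin 5 lineage keep the gene, so this value does not check the genotype. The level in the deleted ears was also above that of the ointment-treated wild-type ears (6.68 to 7.87 FPKM; log2 difference 1.49, adjusted p = 0.00558).

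Cyp24a1, the main induced target of the receptor and the enzyme that inactivates its ligand, was listed at 0.372, 0.0203 and 0 FPKM in untreated ears and at 0, 0.271 and 0.175 in VDRcKO_Oxarol ears. The ranges overlapped, and the difference was 0.03 ± 0.62 (adjusted p = 0.978). In wild-type ears given the ointment it was listed at 66.2, 599 and 458 FPKM, and the log2 difference of the deleted ears from these was -7.85 (adjusted p = 0.000689). Slc39a4, an intestinal-type zinc importer, and Klk12, a kallikrein protease, were singled out after their values were seen. Slc39a4 stood at 0.474, 0.528 and 0.528 FPKM in untreated ears, at 0.393, 0.664 and 0.671 in VDRcKO_Oxarol ears and at a mean of 57.3 in WT_Oxarol ears. Klk12 stood at 1.35 to 2.46 FPKM untreated and 1.37 to 2.08 in the deleted ears, against a mean of 30.3 in WT_Oxarol ears. For these 3 genes the treated, deleted ear held the level of the untreated wild-type ear.

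Hr, which encodes Hairless, the corepressor of the receptor in the follicle, was listed at 5.71, 9.87 and 10.4 FPKM untreated and at 25.5, 27.8 and 23.0 in VDRcKO_Oxarol ears. The groups did not overlap, and Hr rose by 1.49 ± 0.18 (adjusted p = 0.00183). Of the 14 genes tested in the list of the receptor, its partners and the vitamin D hydroxylases, 3 were higher and 1 was lower, beside 12.8% and 6.2% over all genes. The median difference was 0.17 (0.26 without untreated replicate 3, 0.11 without VDRcKO_Oxarol replicate 3) and turned to -0.02 with quantile normalization. Without untreated replicate 1, 2 were lower. The higher gene besides Vdr and Hr was Rxrb, a retinoid X receptor (0.89 ± 0.19, adjusted p = 0.0137), and the lower gene was Ncoa1, a nuclear receptor coactivator (-0.68 ± 0.11, adjusted p = 0.00528). Among 11 genes known as receptor targets from other tissues, 1 was higher (2 without untreated replicate 1 or 2) and 1 was lower, beside the same shares over all genes. The higher gene was Spp1, which encodes the matrix protein osteopontin, at 12.8, 7.99 and 11.9 FPKM untreated and 24.9, 28.9 and 27.5 in VDRcKO_Oxarol ears. The lower gene was Pdgfa, a growth factor for fibroblasts (-0.41 ± 0.12, adjusted p = 0.0367); the call of Pdgfa was lost without untreated replicate 2 or 3 or VDRcKO_Oxarol replicate 1 or 3, with adjusted p from 0.0577 to 0.118.

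**Figure D2:**
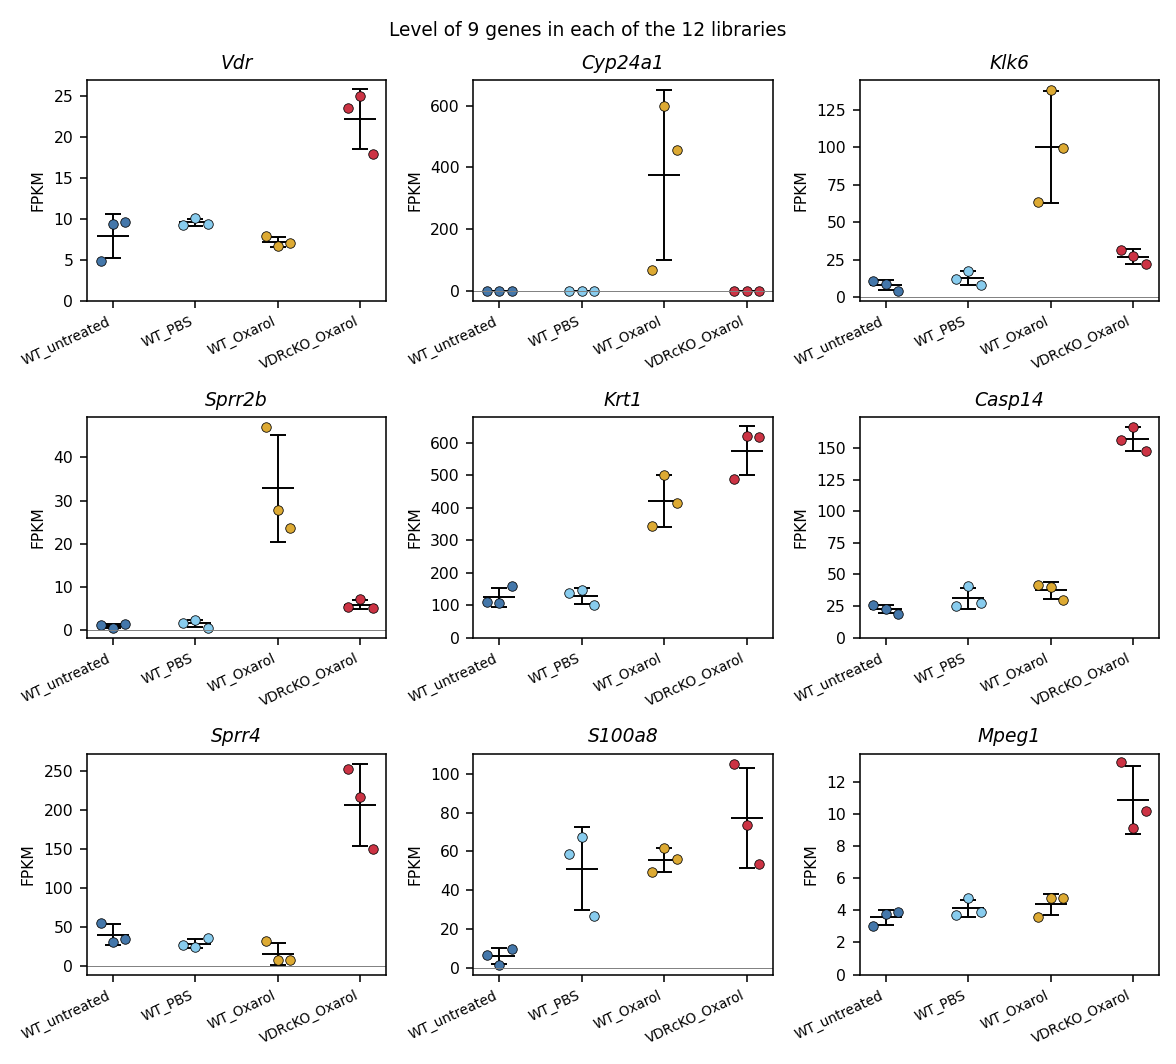
FPKM of 9 genes in each of the 12 libraries, with a panel per gene; dots are libraries and the bar is the group mean with its SD (n = 3). Cyp24a1 reaches 66.2 to 599 FPKM in the WT_Oxarol libraries and stays under 1 FPKM in the other 9; Vdr, Krt1, Casp14, Sprr4, S100a8 and Mpeg1 lie above the untreated libraries in all 3 VDRcKO_Oxarol libraries.

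Genes of the cornifying epidermis rose in part. Of 17 tested genes of the cornified envelope, the cross-linked protein shell of dead surface cells, and of filaggrin processing, 7 were higher and none lower (median difference 0.32 against 0.08 over all genes); 4 were higher without VDRcKO_Oxarol replicate 1 or 2. The 7 include Tchh, counted again with the inner root sheath of the hair, and Sprr4, counted again with the small proline-rich proteins. Casp14, the caspase that processes filaggrin in the upper epidermis, was listed at 25.5, 22.8 and 19.1 FPKM untreated and at 156, 167 and 148 in VDRcKO_Oxarol ears. The lowest deleted library lay far above the highest untreated library, a 6.98-fold ratio of mean FPKM (2.76 ± 0.18, adjusted p = 0.000126). Levels in the reference groups were 24.8 to 40.7 FPKM with saline and 30.0 to 41.6 with ointment in wild-type ears. The deleted ears also exceeded WT_Oxarol, by 2.06 (adjusted p = 0.000689). Rptn, repetin of the cornified layer, rose from 1.77 to 2.11 FPKM untreated to 5.24 to 5.81 (1.18 ± 0.10, adjusted p = 0.000573). Asprv1, a protease that acts on filaggrin, rose by 0.68 ± 0.14 (adjusted p = 0.0118). Lor, which encodes loricrin and was named after its values were seen, was listed at 809, 765 and 545 FPKM untreated and 884, 1091 and 977 in deleted ears and was not called (0.49, adjusted p = 0.0769).

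Krt1, the keratin of the first suprabasal layers, was listed at 110, 106 and 159 FPKM untreated and at 488, 620 and 618 in VDRcKO_Oxarol ears. The groups did not overlap, and Krt1 rose by 2.21 ± 0.21 (adjusted p = 0.000645). It was at 344 to 502 FPKM in WT_Oxarol ears, against which the deleted ears did not pass the threshold (0.46, adjusted p = 0.15). Of 15 suprabasal keratinocyte genes tested 2 were called, both higher, near the 12.8% over all genes. They were Krt1 and the corneodesmosome gene Cdsn. The call of Cdsn was lost in several settings, among them without untreated replicate 1 or 3 or VDRcKO_Oxarol replicate 1 or 2 (adjusted p 0.0553 to 0.102). Of 12 basal keratinocyte genes 1 was called (19% over all genes), and none without untreated replicate 2 or any 1 of the VDRcKO_Oxarol libraries. None of the 18 late cornified envelope genes was called by limma (2 had an unadjusted p under 0.05), and 1 was called without untreated replicate 1.

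The small proline-rich proteins, cross-bridges of the cornified envelope, had different levels in the ointment-treated wild-type ears. Of 11 tested, 4 rose and none fell (median 0.59; 1.1 without untreated replicate 1, 0.33 without untreated replicate 3 and 0.93 without VDRcKO_Oxarol replicate 2), and near-identical members of this family may share reads. Sprr4 was listed at 55.6, 30.7 and 34.0 FPKM untreated and at 253, 217 and 150 in VDRcKO_Oxarol ears (2.35 ± 0.46, adjusted p = 0.0102). It stood at 7.22 to 32.0 FPKM in WT_Oxarol ears, so the deleted ears lay above both wild-type groups, by 3.92 against WT_Oxarol (adjusted p = 0.00303). Sprr1a followed with 246, 176 and 157 FPKM untreated and 740, 583 and 407 in the deleted ears (1.56 ± 0.23, adjusted p = 0.00348). Sprr2b lay in between. It was listed at 1.16, 0.633 and 1.43 FPKM untreated, at 5.47, 7.21 and 5.19 in VDRcKO_Oxarol ears and at 23.7 to 47.0 in WT_Oxarol ears. Sprr2b was thus higher than untreated (1.75 ± 0.30, adjusted p = 0.00616) and lower than ointment-treated wild type (-2.23, adjusted p = 0.00507). Sprr2a2 had the same order, with 2.18 ± 0.43 (adjusted p = 0.0106) against untreated and -2.32 (adjusted p = 0.0138) against WT_Oxarol.

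The kallikreins, serine proteases that shed surface cells, included further genes of this intermediate kind. Of 19 kallikreins and inhibitors tested, 4 were higher and 3 lower, beside 12.8% and 6.2% over all genes (median 0.24, and 0.11 without untreated replicate 3). Without VDRcKO_Oxarol replicate 1 or 2, 2 were higher. Klk6 was listed at 10.8, 8.93 and 4.47 FPKM untreated and at 31.8, 27.4 and 22.1 in VDRcKO_Oxarol ears, against 63.5 to 138 in WT_Oxarol ears. All 3 deleted libraries lay between the other groups; the difference was 1.69 ± 0.35 (adjusted p = 0.0125) from untreated and -1.80 (adjusted p = 0.0152) from WT_Oxarol. Klk13 went from 1.93 to 4.09 FPKM untreated to 10.5 to 15.4 (1.92 ± 0.41, adjusted p = 0.0137) and was lower than in WT_Oxarol ears (-2.43, adjusted p = 0.00957). With saline, Klk6 stood at 8.39 to 17.9 FPKM and Klk13 at 3.17 to 11.5. Against these ears neither gene passed the threshold in the deleted ears (adjusted p = 0.0645 for Klk6 and 0.0785 for Klk13). Serpinb2, a plasminogen activator inhibitor of keratinocytes, fell from 174, 118 and 156 FPKM to 67.5, 82.1 and 79.1 (-0.95 ± 0.16, adjusted p = 0.00567), and Serpinb7, a related inhibitor of the epidermis, fell as well (-0.78 ± 0.15, adjusted p = 0.0101).

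Keratins of wounded and inner follicle epithelium were higher: 3 of 4 stress keratins tested rose, and 1 did so without VDRcKO_Oxarol replicate 1 or 2. Krt17 was listed at 161, 171 and 201 FPKM untreated and at 548, 450 and 316 in VDRcKO_Oxarol ears (1.27 ± 0.18, adjusted p = 0.00341), above the 156 to 193 of WT_Oxarol ears. Krt6b stood at 3.84, 3.71 and 5.44 FPKM untreated and at 27.0, 25.5 and 12.1 in deleted ears (2.02 ± 0.44, adjusted p = 0.0139), and saline-treated wild-type ears already held 13.8 to 41.9. Without VDRcKO_Oxarol replicate 1 the adjusted p of Krt6b was 0.0505, and without replicate 2 it was 0.0508. For Krt6a the values without these libraries were 0.0656 and 0.0642. Krt16, the partner of Krt6a, was not called (0.43, adjusted p = 0.221). Of 31 claudins, connexins and desmosomal cadherins, 4 rose and 5 fell, beside 12.8% and 6.2% over all genes (1 fell without VDRcKO_Oxarol replicate 1, 3 without untreated replicate 2 or VDRcKO_Oxarol replicate 2 or 3). Gjb2, connexin 26, was listed at 8.95, 10.5 and 11.8 FPKM untreated and at 69.9, 48.0 and 30.8 in deleted ears (2.08 ± 0.26, adjusted p = 0.0022), with 25.2 to 33.2 in saline-treated ears. Gja1, connexin 43, rose by 0.92 ± 0.13 (adjusted p = 0.00345), Cldn1 rose by 0.59 ± 0.11 (adjusted p = 0.00884) and Cldn4 fell (-0.45 ± 0.10, adjusted p = 0.0137).

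Hair shaft genes had the largest differences, and these were uneven among the untreated libraries. Of 13 hair shaft keratins tested, 12 were higher (median difference 3.29); of 10 genes of the inner root sheath and companion layer, the sleeve that moulds the growing shaft, 5 were higher (median 2.98); and of 49 keratin-associated proteins, which fill the shaft between the keratins, 38 were higher (median 3.56). None of the genes tested in these 3 lists was lower. Some members passed the filter only through the VDRcKO_Oxarol libraries, such as Krt82 (at most 0.342 FPKM untreated, 1.33 to 4.27 in deleted ears). Such genes could hardly be called lower, so these counts depend in part on the filter. The proximal promoters of 4 hair keratin genes are shown because these genes sat among the large increases and lie close together or share promoter letters. They are from RefSeq on GRCm38.p6, 5′ to 3′ on the coding strand and ending at the base before the annotated start; capitals mark 2 motifs searched on both strands. The motif CTTTGA is the core of sites for LEF/TCF factors of the Wnt pathway. The motif TATAAA is a common form of the TATA box.
Krt33b, chr11:100029869-100030118, minus strand: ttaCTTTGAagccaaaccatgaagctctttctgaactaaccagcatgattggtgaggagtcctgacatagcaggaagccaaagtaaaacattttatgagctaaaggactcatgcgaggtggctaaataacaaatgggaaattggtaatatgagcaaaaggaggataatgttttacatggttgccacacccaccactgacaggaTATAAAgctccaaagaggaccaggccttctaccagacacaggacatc
Krt34, chr11:100041555-100041804, minus strand: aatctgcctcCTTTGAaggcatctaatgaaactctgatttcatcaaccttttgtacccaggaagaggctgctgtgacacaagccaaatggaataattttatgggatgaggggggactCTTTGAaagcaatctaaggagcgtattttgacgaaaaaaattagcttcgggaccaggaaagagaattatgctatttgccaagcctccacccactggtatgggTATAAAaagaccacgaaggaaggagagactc
Krt31, chr11:100050552-100050801, minus strand: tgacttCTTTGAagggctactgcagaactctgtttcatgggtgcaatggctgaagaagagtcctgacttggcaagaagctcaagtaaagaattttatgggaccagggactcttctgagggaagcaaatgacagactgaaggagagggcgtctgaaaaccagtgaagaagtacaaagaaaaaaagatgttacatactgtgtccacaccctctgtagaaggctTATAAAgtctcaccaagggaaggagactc
Krt71, chr15:101743098-101743347, minus strand: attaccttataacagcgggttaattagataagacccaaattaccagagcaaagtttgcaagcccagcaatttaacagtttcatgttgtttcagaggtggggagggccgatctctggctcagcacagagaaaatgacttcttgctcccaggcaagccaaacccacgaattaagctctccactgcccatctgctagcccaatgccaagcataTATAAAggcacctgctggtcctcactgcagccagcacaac
The windows of Krt33b, Krt34 and Krt31 hold both motifs, and that of Krt71, a keratin of the inner root sheath, holds TATAAA only. The TATAAA begins 47, 31, 29 and 40 bases before the start in Krt33b, Krt34, Krt31 and Krt71. For the counts, both motifs were searched in the 250 bases before each start, using the promoters held in full (250 bases before and 50 after). CTTTGA was found in 4 of the 7 hair shaft keratins with a promoter in the table (57.1%) and TATAAA in 6 (85.7%). Over all 32851 windows of 27025 genes the shares were 13.8% and 12.4%. The 7 shaft keratins are part of the 13 tested and include Krt33b, Krt34 and Krt31. As these were shown partly for shared letters, the 57.1% is not independent of that choice. Among 37 keratin-associated protein genes with a promoter, 9 (24.3%) held CTTTGA and 32 (86.5%) held TATAAA; among 10 inner root sheath genes, 2 and 7 did. A match describes letters and does not show a bound site.

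Krt31, an acidic keratin of the shaft cortex, was listed at 0.0812, 0.711 and 15.7 FPKM in untreated replicates 1, 2 and 3 and at 93.8, 66.5 and 35.1 in VDRcKO_Oxarol replicates 1, 2 and 3. Krt33b, its neighbour, was listed at 0.0812, 0.194 and 12.8 FPKM and at 72.9, 53.4 and 27.0. For both genes the groups did not overlap, but untreated replicate 3 was many times above the other untreated libraries. The differences were 4.29 ± 1.35 (adjusted p = 0.0489) for Krt31 and 4.21 ± 1.26 (adjusted p = 0.0423) for Krt33b. Krt34 and Krt33a were chosen after their values were seen. Krt34 was listed at 0.0342, 0.161 and 4.37 FPKM untreated and 29.7, 18.9 and 8.94 in deleted ears (3.29 ± 0.94, adjusted p = 0.0363), and Krt33a differed by 4.62 and was not called (adjusted p = 0.0738). Krt71 stood at 0, 0.665 and 26.7 FPKM untreated and at 260, 134 and 49.2 in deleted ears (5.08 ± 1.58, adjusted p = 0.0474). Tchh, trichohyalin of the inner root sheath, stood at 1.4, 1.97 and 26.7 FPKM and at 182, 88.7 and 33.7 (3.83 ± 1.19, adjusted p = 0.0472). The calls of Krt31, Krt33b, Krt71 and Tchh were lost when any 1 of the 6 libraries other than untreated replicate 3 was left out: Krt31 then had an adjusted p of 0.0792 to 0.138, Krt33b 0.0694 to 0.117, Krt71 0.0685 to 0.135 and Tchh 0.0589 to 0.138.

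The keratin-associated proteins followed the same libraries. Krtap16-5 was listed at 0, 0 and 8.8 FPKM untreated and at 196, 182 and 127 in VDRcKO_Oxarol ears (6.28 ± 1.71, adjusted p = 0.0308). Saline-treated replicate 3 of the wild type held 155 FPKM, within the range of the deleted ears. Krtap15 was listed at 0, 0.199 and 15.9 FPKM and at 274, 155 and 106 (5.93 ± 1.70, adjusted p = 0.0365). Without any 1 of the 6 libraries but untreated replicate 3, the adjusted p of Krtap16-5 was 0.066 to 0.0808 and that of Krtap15 was 0.07 to 0.1. Some members did not depend on 1 library. Krtap16-4 was listed at 0 in all 3 untreated libraries and at 26.5, 27.2 and 15.5 FPKM in the deleted ears. Krtap16-1 was listed at 0, 0 and 0.221 FPKM and at 50.8, 34.9 and 29.0 (5.16 ± 1.06, adjusted p = 0.0121). Saline-treated replicate 3 of the wild type held 20.7 FPKM of Krtap16-4 and 33.1 of Krtap16-1, again within the range of the deleted ears. Krt35, a keratin of the early cortex and cuticle, was listed at 0.0421, 0.217 and 0.747 FPKM and at 13.4, 8.58 and 3.16 (2.67 ± 0.51, adjusted p = 0.00907). Apart from saline-treated replicate 3, no wild-type library reached 1 FPKM for these 3 genes. They needed the VDRcKO_Oxarol libraries to pass the filter and could hardly be called lower. Among the calls of Krtap16-4, Krtap16-1 and Krt35, none was lost by leaving out 1 library, and only that of Krt35 was lost in the second series alone.

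Hair gene levels varied among libraries of every group. The mean log2(FPKM + 1) of the 13 shaft keratins was 0.23, 0.41 and 2.17 in untreated replicates 1 to 3, 0.19, 0.53 and 3.11 with saline, 1.4, 0.18 and 0.12 with ointment in wild-type ears, and 4.72, 4.09 and 3.2 in the deleted ears. The lowest deleted library and the highest saline-treated library were thus 3.2 and 3.11. For inner root sheath genes, saline-treated replicate 3 was at 3.97, above deleted replicate 3 at 3.64. For keratin-associated proteins these 2 libraries were at 4.18 and 4.21. Against untreated replicate 3 alone, within the second series, the median difference was 1.8 for shaft keratins, 1.37 for inner root sheath genes and 1.9 for keratin-associated proteins, with 0, 0 and 6 genes called. With the series as a term, 4 shaft keratins and 6 keratin-associated proteins were called. Leaving out 1 library at a time left 4 (without VDRcKO_Oxarol replicate 1) to 13 shaft keratins called (without untreated replicate 3). For keratin-associated proteins the number was 8 (without VDRcKO_Oxarol replicate 2) to 45 (without untreated replicate 3). For inner root sheath genes it was 0 without untreated replicate 1 or 2 or VDRcKO_Oxarol replicate 1 or 2, 3 without VDRcKO_Oxarol replicate 3 and 8 without untreated replicate 3.

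**Figure D3:**
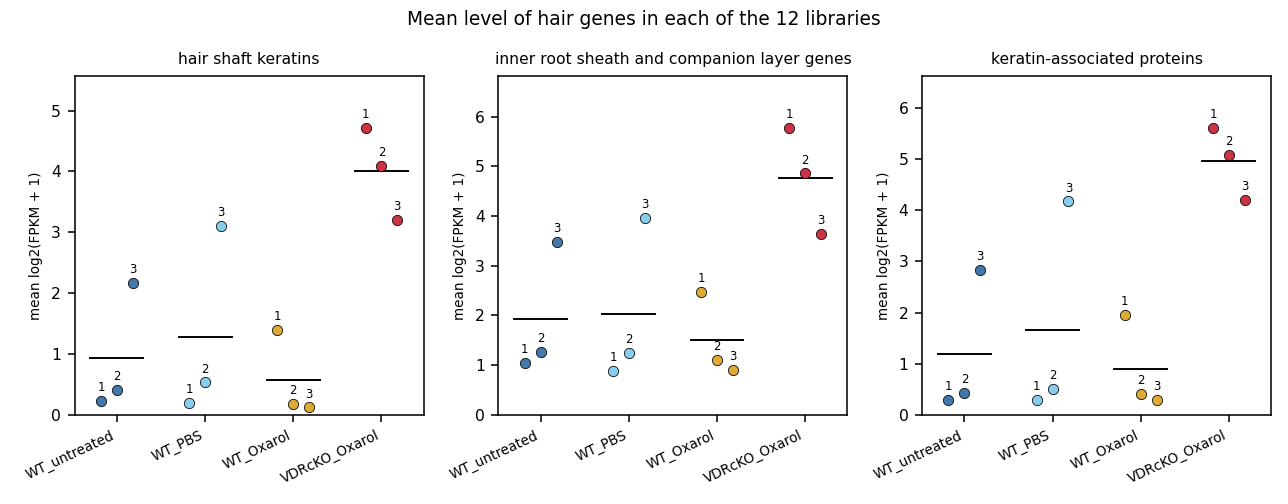
Mean log2(FPKM + 1) of 3 lists of hair genes in each of the 12 libraries, grouped by treatment and genotype; points are libraries and the number beside each is its replicate. For shaft keratins the VDRcKO_Oxarol libraries are the highest (3.2 to 4.72). Untreated and saline replicates 3 reach 2.17 and 3.11, and the other wild-type libraries lie at 1.4 or less. For inner root sheath genes saline replicate 3 (3.97) lies above VDRcKO_Oxarol replicate 3 (3.64). For keratin-associated proteins these 2 libraries lie at 4.18 and 4.21.

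Genes that regulate the follicle were read as a separate list. Of 15 transcription factors and signals of the hair matrix, 3 were higher and 2 lower, beside 12.8% and 6.2% over all genes. The median was 0.08 (between -0.09 without untreated replicate 3 and 0.21 without untreated replicate 2, and -0.11 with quantile normalization). None of the list was higher without untreated replicate 1 or VDRcKO_Oxarol replicate 1 or 2. Gata3, a factor of the inner root sheath and the epidermis, fell from 227, 284 and 246 FPKM to 126, 123 and 123 (-1.01 ± 0.16, adjusted p = 0.00528), and its groups did not overlap. Wnt10b, a Wnt ligand of the growing follicle, fell (-0.76 ± 0.13, adjusted p = 0.00629) to 0.393 to 0.498 FPKM. In WT_Oxarol ears Wnt10b stood at 0.429 to 0.694 FPKM, and the deleted ears differed from these by -0.09 (adjusted p = 0.674). Of 13 markers of follicle stem cells, 5 were higher and 1 was lower; without any 1 of the VDRcKO_Oxarol libraries, 2 were higher. Krt15, a keratin of bulge stem cells and basal cells, was the lower gene, at 2482, 2448 and 2092 FPKM untreated and 1218, 1114 and 1122 in deleted ears (-1.02 ± 0.18, adjusted p = 0.00648). It stood at 814 to 1354 FPKM in WT_Oxarol ears, and the deleted ears did not pass the threshold against them (0.16, adjusted p = 0.551). Gas1, a hedgehog co-receptor, was higher, at 19.4, 31.6 and 27.5 FPKM untreated and 48.5, 51.7 and 47.1 in deleted ears (0.91 ± 0.15, adjusted p = 0.00516). Krt79, a keratin of the follicle canal and the sebaceous duct, rose from 91.8, 90.3 and 66.9 FPKM to 194, 188 and 169 (1.15 ± 0.13, adjusted p = 0.0015).

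Macrophage genes rose as a broad list. Of 19 macrophage and monocyte genes tested, 16 were higher and none lower, with a median difference of 0.72. Within the second series the median was 0.74 with none called, and the fit on only the 6 libraries called 8. Their summed level was 784.7 to 901.6 FPKM in the untreated libraries and 1275 to 1597 in the VDRcKO_Oxarol libraries, with no overlap, and none of the 19 was at 0 in a whole group. Mpeg1, a pore-forming protein of macrophages, was listed at 3.03, 3.76 and 3.9 FPKM untreated and at 13.2, 9.14 and 10.2 in deleted ears (1.37 ± 0.15, adjusted p = 0.0015). Mrc1, the mannose receptor of resident tissue macrophages, went from 13.3, 11.4 and 12.5 FPKM to 21.1, 19.9 and 20.8 (0.69 ± 0.08, adjusted p = 0.00183). Both were also above WT_Oxarol ears, Mpeg1 by 1.13 (adjusted p = 0.00507) and Mrc1 by 0.53 (adjusted p = 0.00781). Ccr2, the receptor of recruited monocytes, rose by 0.98 ± 0.15 (adjusted p = 0.0038) and C1qa, a complement subunit, by 0.82 ± 0.12 (adjusted p = 0.00409). Mmp12, the macrophage elastase, named after its values were seen, was listed at 1.39, 1.05 and 0.863 FPKM untreated and at 9.11, 7.4 and 4.22 in deleted ears (1.87 ± 0.31, adjusted p = 0.00542). Leaving out 1 library at a time kept 12 (without VDRcKO_Oxarol replicate 1) to 15 of the list called. Calls in the T cell, Langerhans cell and mast cell lists were all higher, beside 12.8% over all genes. Of 11 T cell genes 1 was called (2 without untreated replicate 1 or 2). Of 15 Langerhans cell and MHC class II genes 2 were called (none without VDRcKO_Oxarol replicate 1, and 1 without untreated replicate 2 or VDRcKO_Oxarol replicate 2 or 3). Of 10 mast cell and basophil genes 2 were called (1 without any 1 of the VDRcKO_Oxarol libraries).

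Antimicrobial and neutrophil lists held more higher genes than the 12.8% over all genes. Of 16 antimicrobial proteins and S100 alarmins, 9 were higher and none lower (median 0.85), and of 6 neutrophil genes 4 were higher (median 1.02). S100a8 and S100a9 are counted as higher in both lists. Within the second series 1 antimicrobial gene and no neutrophil gene was called. S100a8, a subunit of calprotectin, was listed at 6.74, 1.66 and 9.85 FPKM untreated and at 105, 73.5 and 53.7 in deleted ears (3.64 ± 0.49, adjusted p = 0.00253). It stood at 26.8 to 67.6 FPKM with saline and 49.3 to 61.6 with ointment in wild-type ears. The difference from WT_Oxarol was 0.42 (adjusted p = 0.582). Defb6, a beta-defensin, had another order: 223, 149 and 112 FPKM untreated, 74.8 to 151 in WT_Oxarol ears and 705, 534 and 520 in deleted ears (1.90 ± 0.30, adjusted p = 0.00455, against untreated; 2.56, adjusted p = 0.00299, against WT_Oxarol). Defb4, an inducible beta-defensin named after its values were seen, was listed at 0 in all 3 untreated libraries and at 1.17, 2.63 and 1.06 FPKM in deleted ears. Defb35, a beta-defensin outside this list, fell from 2.61, 2.57 and 6.67 FPKM to 0, 0 and 1.85 (-1.71 ± 0.50, adjusted p = 0.0387). It stood at 0 to 1.03 FPKM in WT_Oxarol ears. Its call was lost in 4 of the fits that left out 1 library. Stfa3 and Stfa1, stefins that inhibit cathepsins and belong to a near-identical family that may share reads, were among the largest increases. Stfa3 stood at 2.75, 0.3 and 1.7 FPKM untreated and at 56.9, 32.0 and 31.7 in deleted ears (4.07 ± 0.41, adjusted p = 0.00116). Stfa1 stood at 2.72, 0.924 and 9.22 FPKM and at 90.1, 48.9 and 59.1 (3.96 ± 0.59, adjusted p = 0.00375), with 112 to 187 in WT_Oxarol ears.

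Among 29 chemokines tested, 12 were higher and none lower (median 0.40; 0.70 without untreated replicate 1, 0.64 without untreated replicate 3 and 0.66 without VDRcKO_Oxarol replicate 2). None was called within the second series. Leaving out 1 library at a time left 8 (without untreated replicate 1 or 2 or VDRcKO_Oxarol replicate 1, the last with 1 gene lower) to 10. Cxcl5, a neutrophil attractant, was listed at 0.391, 0.693 and 0.483 FPKM untreated and at 3.94, 5.65 and 3.26 in deleted ears (1.77 ± 0.20, adjusted p = 0.00165), with 2.58 to 4.17 in saline-treated ears. Cxcl12, the ligand of Cxcr4 made by stromal cells, was at 45.3, 49.8 and 55.6 FPKM untreated and 89.8, 84.2 and 90.2 in deleted ears (0.80 ± 0.09, adjusted p = 0.0015), while saline-treated and ointment-treated wild-type ears held 42.7 to 49.8 and 45.4 to 48.3. The myeloid chemokines Ccl9 and Ccl6 rose by 1.23 ± 0.13 (adjusted p = 0.00116) and 1.18 ± 0.14 (adjusted p = 0.00189). Of 14 type 2 immune genes 5 were higher. Chi3l3, a chitinase-like protein of alternatively activated macrophages, was listed at 0.383, 0.0941 and 0.366 FPKM untreated and at 8.77, 5.97 and 3.2 in deleted ears (2.37 ± 0.29, adjusted p = 0.00189); saline-treated ears held 3.09 to 4.36. Chi3l1, a related protein, rose by 1.73 ± 0.23 (adjusted p = 0.00246) to 99.8 to 128 FPKM, with 133 to 147 in WT_Oxarol ears. Crlf2, the receptor chain for the cytokine Tslp, rose by 0.91 ± 0.15 (adjusted p = 0.00507). Tslp itself, at a mean of 17.8 FPKM in WT_Oxarol ears and named after its values were seen, was listed at 6.92, 5.32 and 6.39 FPKM untreated and 4.9, 7.38 and 6.98 in deleted ears; these ranges overlapped. Of 16 alarmins and interleukin-1 family genes 2 were higher, near the 12.8% over all genes (5 without untreated replicate 1, 4 without untreated replicate 3). Among the 2 was Il1rl1, the interleukin-33 receptor, from 0.753, 0.546 and 1.12 FPKM to 3.51, 5.63 and 6.49 (1.76 ± 0.21, adjusted p = 0.00183). The other, Il1b, kept no call without untreated replicate 2 (adjusted p = 0.0973), VDRcKO_Oxarol replicate 1 (0.122) or replicate 3 (0.0682). Of 17 interferon-induced genes 4 were higher (median 0.54; 0.26 without VDRcKO_Oxarol replicate 1 and 0.13 within the second series), from 2 without untreated replicate 1 or 2 or VDRcKO_Oxarol replicate 1 or 2 to 7 without untreated replicate 3. Oasl1, an antiviral oligoadenylate synthetase-like protein, was at 0.233, 0.0982 and 0.185 FPKM untreated and at 2.17, 1.57 and 1.06 in deleted ears (1.13 ± 0.17, adjusted p = 0.00355). All wild-type values of Oasl1 were under 1 FPKM, so it passed the filter through the VDRcKO_Oxarol libraries alone.

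**Figure D4:**
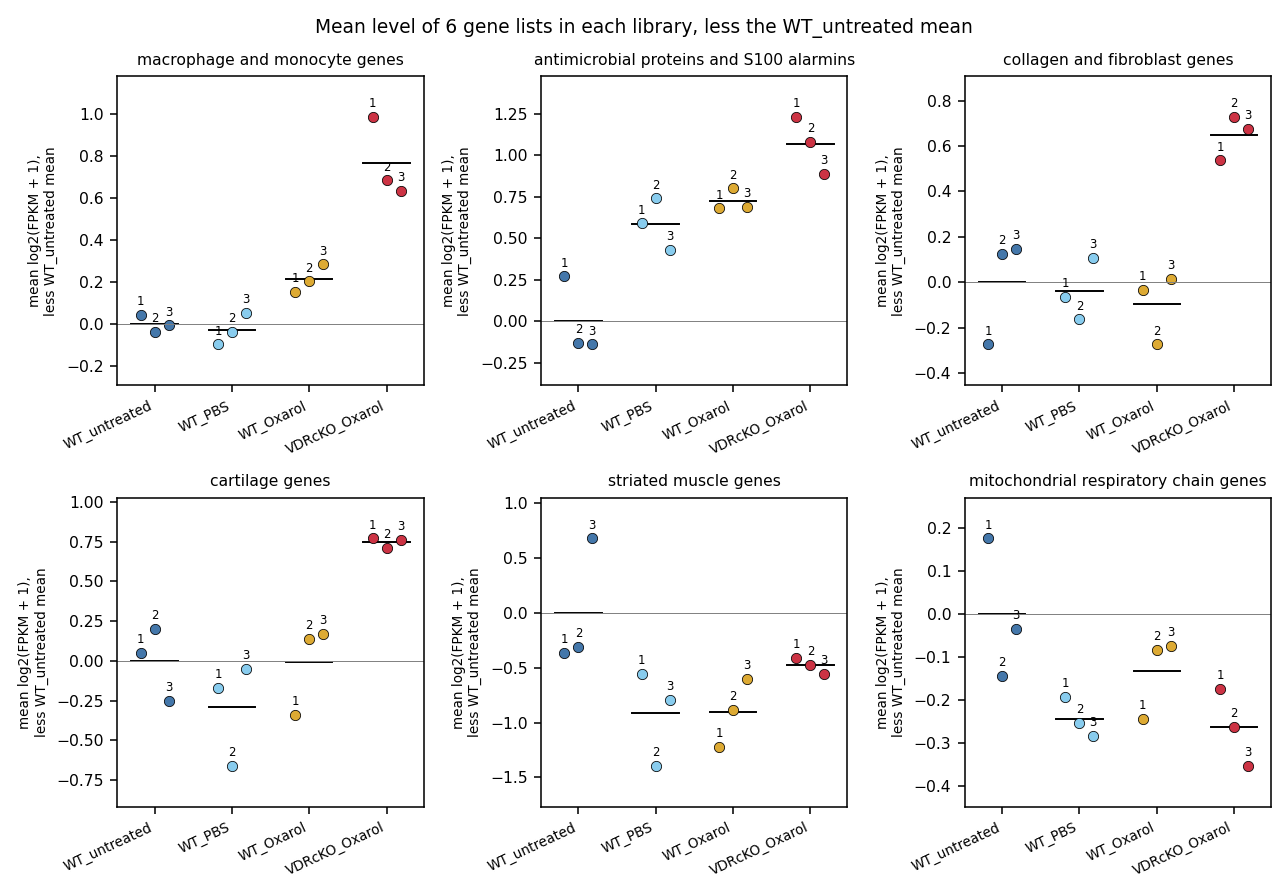
Mean log2(FPKM + 1) of 6 gene lists in each of the 12 libraries, minus the mean of the 3 untreated libraries; points are libraries. For the 19 macrophage genes all VDRcKO_Oxarol libraries lie above all wild-type libraries, whereas the antimicrobial genes of the saline-treated and ointment-treated wild-type libraries also lie above the untreated ones.

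Matrix genes of the dermis and of cartilage were higher. Of 16 collagen and fibroblast genes, 10 were higher and none lower (median 0.67), and 7 were higher without VDRcKO_Oxarol replicate 2 or 3. Within the second series the median was 0.61 with none called, and the fit on only the 6 libraries called 2. Col1a1, a chain of type I collagen, was listed at 82.3, 272 and 254 FPKM untreated and at 603, 1100 and 924 in deleted ears (2.24 ± 0.42, adjusted p = 0.00824). Untreated replicate 1 was the low one, and the deleted libraries lay above all 3. Fn1, fibronectin, rose by 1.05 ± 0.17 (adjusted p = 0.00503), as did Col5a2, a collagen V chain (1.05 ± 0.17, adjusted p = 0.00527). Col3a1, a collagen III chain named after its value was seen, rose by 1.40 ± 0.28 (adjusted p = 0.0115). Of 14 cartilage genes 7 were higher (median 0.74; 1.13 and 3 called within the second series; 4 called without VDRcKO_Oxarol replicate 2). Col2a1, the main collagen of cartilage, was listed at 2.61, 4.35 and 3.62 FPKM untreated and at 12.1, 13.0 and 13.4 in deleted ears (1.63 ± 0.23, adjusted p = 0.00307). Col9a3 went from 7.36, 10.5 and 5.36 FPKM to 27.3, 30.0 and 27.7 (1.79 ± 0.21, adjusted p = 0.00183). Summed over the list, cartilage genes ran from 425.6 to 561.9 FPKM untreated and from 540.3 to 743.9 in deleted ears, with an overlap. The part that the amount of cartilage in each sample has in these values was not tested. Striated muscle genes had a median of -0.52, with 2 of 15 lower. Within the second series the median was -1.2 with 6 lower, and with the series as a term -0.94 with 4 lower. Tnnc2, a troponin of fast muscle, was listed at 2760, 2488 and 5161 FPKM untreated and 1638, 1574 and 1398 in deleted ears (-1.10 ± 0.31, adjusted p = 0.0361). It stood at 1176 to 2175 FPKM with saline and 1203 to 2113 with ointment in wild-type ears, ranges that overlap the deleted ears (adjusted p 0.777 and 0.864). Without untreated replicate 3, the highest in muscle genes, the median of the list was -0.15 and Tnnc2 differed by -0.77 (adjusted p = 0.0727); its call was also lost without any 1 of the VDRcKO_Oxarol libraries (adjusted p 0.0765 to 0.0941). None of 13 adipocyte genes was called by limma (1 had an unadjusted p under 0.05); 4 were higher without untreated replicate 3 and 1 was lower without untreated replicate 2.

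**Figure D5:**
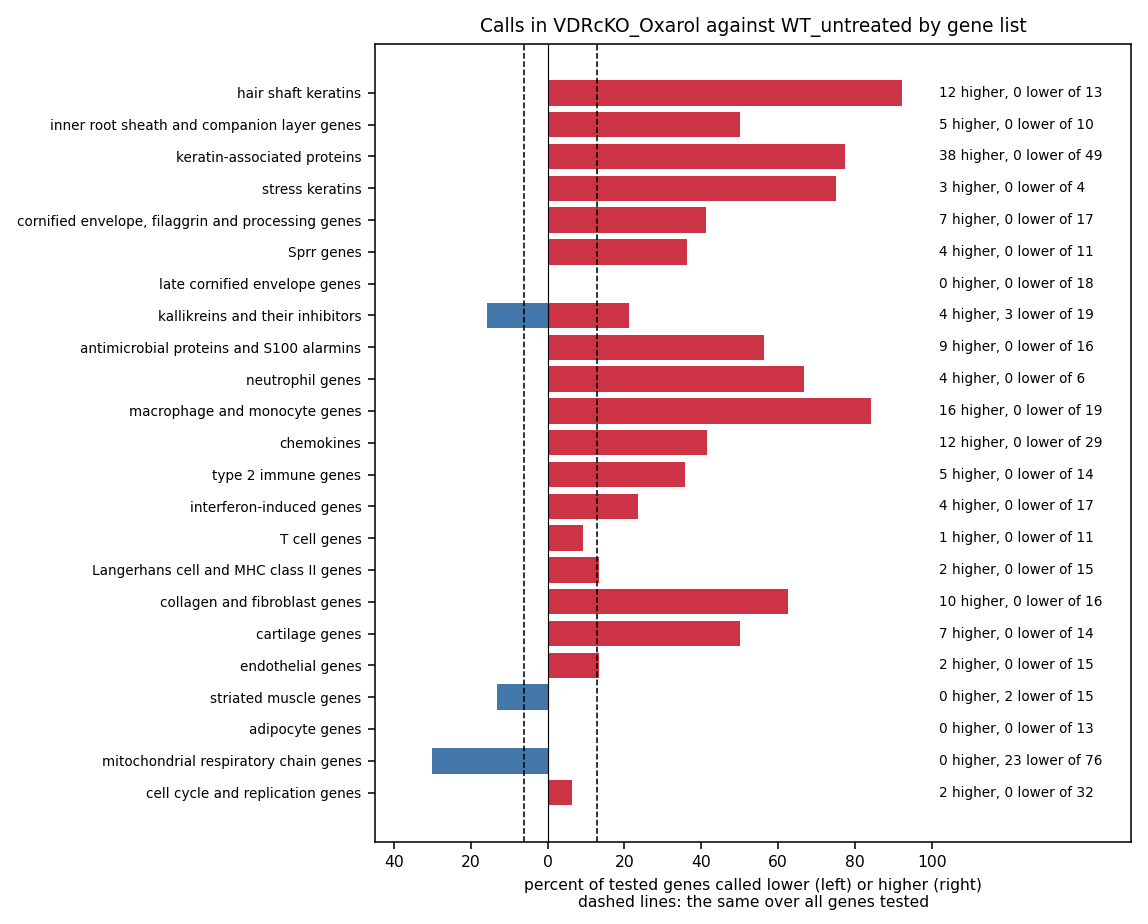
Percent of the tested genes of each list called higher (to the right) or lower (to the left) in VDRcKO_Oxarol than in WT_untreated; dashed lines mark the 12.8% and 6.2% called over all 14059 genes. Hair shaft, keratin-associated protein and macrophage lists lie far above the higher line, and the mitochondrial list is the one with 23 of 76 genes lower and none higher.

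The largest decreases among the named genes were smaller than the largest increases. Wfdc3, a secreted protein with whey acidic protein domains, was listed at 13.0, 10.8 and 9.81 FPKM untreated and at 1.93, 1.9 and 3.08 in deleted ears, a 4.87-fold lower mean (-1.90 ± 0.14, adjusted p = 0.000229). It stood at 7.96 to 8.06 FPKM with saline and at 4.35 to 4.8 with ointment in wild-type ears, and the deleted ears lay below all of them (-0.78 against WT_Oxarol, adjusted p = 0.0122). Gadl1, a decarboxylase related to glutamate decarboxylase, fell from 8.24, 7.46 and 4.07 FPKM to 0.901, 1.32 and 1.19 (-1.79 ± 0.24, adjusted p = 0.00265), below the 3.81 to 5.22 of WT_Oxarol ears. Igfbp6, which binds insulin-like growth factor 2, was listed at 129, 127 and 136 FPKM untreated and at 72.2, 38.2 and 46.3 in deleted ears (-1.35 ± 0.20, adjusted p = 0.00348). Mbnl1, a splicing regulator, stood at 162, 160 and 173 FPKM and at 98.7, 53.6 and 57.8 (-1.28 ± 0.19, adjusted p = 0.00358), with 157 to 190 in the other wild-type groups. Snrpn, an imprinted splicing protein gene, fell (-1.27 ± 0.25, adjusted p = 0.0106). Guca2a (-1.51 ± 0.38, adjusted p = 0.0233) and Lypd2 (-1.49 ± 0.41, adjusted p = 0.0332) fell as well. Against WT_Oxarol ears neither Guca2a nor Lypd2 passed the threshold (adjusted p = 0.609 and 0.545). The call of each was lost in 4 of the fits that left out 1 library. Calcb, a calcitonin gene-related peptide of sensory neurons, was listed at 21.9, 21.6 and 23.5 FPKM untreated and 4.32, 10.3 and 5.72 in deleted ears (-1.66 ± 0.41, adjusted p = 0.0222). The adjusted p of Calcb was 0.0749 without VDRcKO_Oxarol replicate 1 and 0.0615 without replicate 3. Cyp2g1, a cytochrome P450, was at 53.8, 63.8 and 57.7 FPKM and at 16.1, 20.1 and 21.3 (-1.56 ± 0.35, adjusted p = 0.0155; 0.0539 without VDRcKO_Oxarol replicate 1).

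Genes of the mitochondrial respiratory chain were lower by small amounts. Of 76 tested, 23 were lower and none higher (6.2% were lower over all genes), with a median of -0.24 that stayed between -0.32 and -0.15 over the 18 alternatives. Without VDRcKO_Oxarol replicate 1, 2 or 3, 14, 11 and 8 were lower, and without untreated replicate 1, 15 were lower and 1 was higher. Uqcrc1, a core protein of complex III, was listed at 430, 408 and 434 FPKM untreated and at 277, 278 and 256 in deleted ears (-0.65 ± 0.08, adjusted p = 0.002). Ndufb8, a complex I subunit, stood at 717, 595 and 664 FPKM and at 444, 430 and 383 (-0.65 ± 0.11, adjusted p = 0.00607). Against WT_Oxarol, the difference of Uqcrc1 was -0.49 (adjusted p = 0.00898) and that of Ndufb8 was -0.53 (adjusted p = 0.0177). The mean log2(FPKM + 1) of the list was 8.07, 7.75 and 7.86 in the untreated libraries, 7.61 to 7.7 with saline and 7.54 to 7.72 in deleted ears; the ranges of saline-treated and deleted ears overlapped. Within the second series 1 gene of the list was called, lower, and with the series as a term 12 were. Muscle, which is rich in mitochondria, had a mean of 7.24, 7.29 and 8.28 untreated and 7.05 to 7.19 in deleted ears, and its part in these values was not tested. Ribosomal protein genes had 1 of 76 called, higher, with a median of 0.23 that was 0.05 without untreated replicate 3 and 0.45 without untreated replicate 1; 44 were called higher without untreated replicate 1.

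Calls in the lipid lists are set beside the 12.8% higher and 6.2% lower over all genes. Of 13 fatty acid synthesis genes 1 was higher and 1 lower (3 were higher without untreated replicate 2 and 2 without untreated replicate 3). Of 22 cholesterol synthesis genes 5 were higher and none lower; 3, 2 and 1 were higher without untreated replicate 1, untreated replicate 3 or VDRcKO_Oxarol replicate 2, and none without VDRcKO_Oxarol replicate 1 or 3. Of 19 epidermal barrier lipid genes 4 were higher and 1 lower; none was higher without VDRcKO_Oxarol replicate 1 or 2, 2 were without untreated replicate 3 or VDRcKO_Oxarol replicate 3, and 2 were lower without untreated replicate 3. Elovl5, which elongates polyunsaturated fatty acids, rose from 38.4, 40.4 and 27.6 FPKM to 75.2, 69.4 and 71.3 (1.02 ± 0.16, adjusted p = 0.00461), and Elovl6, which elongates saturated and monounsaturated ones, fell from 68.1, 64.3 and 64.7 FPKM to 34.1, 49.0 and 40.6 (-0.67 ± 0.12, adjusted p = 0.00653). In wild-type ears given ointment, Elovl5 stood at 31.1 to 46.7 FPKM and Elovl6 at 65.1 to 75.7, near the untreated levels. Lass3, a ceramide synthase of the epidermis, fell (-0.66 ± 0.11, adjusted p = 0.00616). Of 29 Wnt ligands, receptors and antagonists, beside the same shares over all genes, 2 were higher (7 without untreated replicate 2, 1 without VDRcKO_Oxarol replicate 2 or 3) and 3 lower (1 without VDRcKO_Oxarol replicate 3). Sfrp1, a secreted Wnt antagonist, was listed at 9.69, 14.8 and 14.5 FPKM untreated and at 31.1, 30.7 and 31.2 in deleted ears (1.21 ± 0.18, adjusted p = 0.00355), with 21.6 to 31.5 in WT_Oxarol ears. Of 32 cell cycle and replication genes 2 were higher, a smaller share than the 12.8% over all genes. E2f1 rose by 0.79 ± 0.15 (adjusted p = 0.0083) and Bub1b by 0.64 ± 0.19 (adjusted p = 0.0376). The call of Bub1b was lost without untreated replicate 1 or 3 or VDRcKO_Oxarol replicate 1 or 2 (adjusted p 0.0782 to 0.115).

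The reference groups place these differences. By the same fit, VDRcKO_Oxarol differed from WT_Oxarol in 1848 genes (13.1%) and from WT_PBS in 2286 (16.3%), and WT_Oxarol differed from WT_untreated in 184 (1.31%). These comparisons share libraries with the main one, so only the values of single genes are set side by side. Genes such as Casp14, Sprr4, Defb6, Cxcl12, Mpeg1, Krt17, Col2a1 and Vdr were higher in the deleted ears than in each of the 3 wild-type groups. S100a8, Cxcl5, Chi3l3, Krt6b and Gjb2 were at similar FPKM ranges in saline-treated wild-type and deleted ears or passed no threshold between them (adjusted p against WT_PBS 0.375, 0.459, 0.242, 0.495 and 0.1). Cyp24a1 stood at untreated level, and Klk6, Klk13, Sprr2b and Sprr2a2 stood between untreated and WT_Oxarol. Among the latter, Klk6 and Klk13 passed no threshold against WT_PBS (adjusted p 0.0645 and 0.0785). In the second series alone, where untreated replicate 3 is the only control and the spread comes from the VDRcKO_Oxarol libraries, 104 genes were called, 50 of them also called over all libraries. Of 158 called genes that were named by the rule or followed by name, 16 kept their call there and 103 kept it with the series as a term, both times including Casp14, Krt79, Col2a1, Col9a3, Gata3 and Elovl5. None of them changed direction under any of the 18 alternatives.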

How the data were processed

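Ear skin RNA was sequenced in 12 libraries, 3 in each of 4 groups, grouped by the labelled genotype and treatment; the 6 libraries of VDRcKO_Oxarol and WT_untreated are compared here. The authors deposited 1 FPKM value per gene symbol and library, a unit taken from the range of values and from Cufflinks in the submitters' processing notes. These notes name TopHat2 2.0.8, Bowtie2 2.1.0, Cufflinks 2.1.1 and the build mm9, without their roles or settings; no source used here gives strand use or read depth. FPKM values are not counts, so no count test was run, and near-identical families (Sprr2, Krtap, Stfa, Klk) and overlapping genes may share reads.

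A gene was kept where 3 or more libraries reached 1 FPKM. A gene can meet this through the VDRcKO_Oxarol libraries alone and can then hardly be called lower in them. A model of 4 group means on log2(FPKM + 1) was fitted with limma 3.58.1 (intensity trend, R 4.3.3, 8 residual degrees of freedom) and p-values were adjusted by Benjamini-Hochberg over all 14059 genes, with a threshold of 0.05. The code was tested on simulated data. Separate animals are not stated for the libraries, and the p-values then reflect only the spread between these samples. Named were Vdr and Cyp24a1, the 12 largest increases and 12 largest decreases among called genes without overlap (a mean of at least 1 FPKM in the higher group, at most 3 per symbol stem, no short RNA genes) and, from each list, at most 4 genes with the smallest p. Not every gene named by this rule is described in the text. Genes named outside this rule are said to be chosen after their values were seen. The comparison, its gene lists and the tests were chosen with earlier results of these data known, so lists are described by counts and medians. The 18 alternatives changed the pseudocount (0.1), the filter (none, or 5 FPKM), the scaling, the libraries, the variance model, the series term and the treatment of zeros and short RNA genes, or left out 1 library. Promoter sequences are those of RefSeq on GRCm38.p6 and were matched by gene symbol. Figures were drawn with matplotlib 3.10.9 in Python 3.11.15.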

Additional observations from a re-analysis of the deposited data

How the results depend on the processing

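Against 2668 called genes (1796 higher, 872 lower), a filter of 5 FPKM called 1194 higher, of 9591 tested. Quantile normalization called 1849 lower and median-of-ratios scaling 1359 lower. The fit on only the 6 libraries called 435 (338 higher, 97 lower), the series as a term 1109 (700 and 409), and the second series alone 104 (49 and 55). Leaving out 1 library at a time called 1168 to 2896 genes, 802 to 1973 higher and 366 to 923 lower. The fewest were called without VDRcKO_Oxarol replicate 2 (1168), replicate 1 (1248) or replicate 3 (1486); each of these left 2 libraries in that group. A pseudocount of 0.1 called 2409, no filter 2344 of 20386, the robust variance model 2647 and array weights 3346. Of the 158 named genes that were called, 12 kept the call under every alternative that tested them. Including these 12, 96 lost it in no setting other than the fit on 6 libraries, the second series alone or the series term. None changed direction. No paired analysis was possible because the replicate numbers follow the order of deposit and pair no samples. Absolute read depth is unknown, so genes near 0 FPKM carry no interval. The estimated relative reads were lower in the VDRcKO_Oxarol libraries than in the untreated ones, and their part in values near 0 was not tested.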

Other observations

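Genes of the daily clock, of retinoid metabolism and of the early stimulus response were read as further groups. Of 13 clock genes, 3 were lower and 1 was higher, beside 6.2% and 12.8% over all genes (3 higher without untreated replicate 2 or 3, and none without VDRcKO_Oxarol replicate 1 or 2). Per3, a period gene, was listed at 38.6, 42.2 and 39.1 FPKM untreated and at 22.4, 25 and 28.2 in VDRcKO_Oxarol ears, a log2 difference of -0.65 ± 0.09 (adjusted p = 0.00347). Hlf, a clock-controlled transcription factor, stood at 13.1, 14.3 and 13.7 FPKM and at 6.15, 7.1 and 7.92 (-0.87 ± 0.16, adjusted p = 0.00789). The deleted libraries lay below all untreated libraries for both genes. The time of day of sampling is not given in the labels.

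Lrat, which stores retinol as retinyl esters, was listed at 0.385, 0.257 and 0.398 FPKM untreated and at 3.48, 2.48 and 2.03 in VDRcKO_Oxarol ears (1.43 ± 0.21, adjusted p = 0.00347), with 0.235 to 0.335 in saline-treated ears. Dhrs3, a retinal reductase, fell from 124, 132 and 162 FPKM to 105, 90.9 and 87.3 (-0.55 ± 0.11, adjusted p = 0.0121). Egr2, an early growth response factor, rose from 9.54, 13.1 and 14.8 FPKM to 37.7, 35.4 and 34.7 (1.47 ± 0.16, adjusted p = 0.0015), while Ier2, another early response gene, fell from 113, 139 and 137 FPKM to 87.3, 93.5 and 83.7 (-0.55 ± 0.12, adjusted p = 0.0137). Of 19 immediate early genes, 5 were higher and 1 lower; 3 were higher without untreated replicate 1 or any 1 of the VDRcKO_Oxarol libraries. Without untreated replicate 3, 7 were higher. Their median was 0.22 over all libraries, 0.66 without untreated replicate 3, 0.12 without untreated replicate 2, 0.03 without untreated replicate 1 and -0.39 in the second series alone.

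Of the 40 tested genes nearest to Vdr on chromosome 15, 20 on each side, 11 were called (27.5%, against 19% over all genes), 5 higher and 6 lower. Nnt, which carries a deletion in C57BL/6J mice, stood at 3.83, 5.19 and 6.89 FPKM untreated and at 9.92, 5.81 and 9.51 in VDRcKO_Oxarol ears (0.58, adjusted p = 0.0749); the ranges overlapped. Of 180 short RNA genes tested, 2 (1.11%) were higher and 7 (3.89%) lower, 5 of the latter listed at 0 in all VDRcKO_Oxarol libraries. Differences varied with transcript length, over 5 groups of equal size from short to long of the 12699 genes with a length (90.3%). Their medians were -0.03, 0.05, 0.11, 0.15 and 0.10, and 0.02, 0.05, 0.08, 0.10 and 0.06 without untreated replicate 1. That library deviated from the other untreated libraries by a median of 0.19 in the shortest group and -0.12 in the longest.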
